A study of Mus musculus with 10 samples.

Results

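RNA of 9 genes of megakaryocytes and erythroid cells was followed across 10 whole mouse livers, out of 24537 gene symbols in the deposited count table. The genes are Pf4, Ppbp, Itga2b, Gp9, Gp1bb and Gp1ba, which mark megakaryocytes and the platelets they shed, and Alas2, Slc4a1 and Klf1, which belong to the erythroid line. They were taken by symbol, and all 9 were in the table. The list was drawn up because Pf4 was higher in old than in young control livers, so the genes were chosen by their levels in old against young control livers. Age differences of these genes are therefore given as descriptions without a test.

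The mice were male and carried a virus in every group. Adeno-associated virus of serotype 8 (AAV8) delivered the Cas9 of Staphylococcus aureus under TBG, a promoter that restricts Cas9 to hepatocytes, with a guide RNA under U6. Control livers received a guide against Rosa26, a locus often used as a neutral target, and came from 3 young mice (9 months old, virus at 7 months) and 3 old mice (25 months old, virus at 23 months). Knockout livers received a guide against Cd44, a cell surface receptor, and came from 4 old mice of 25 months given virus at 23 months. Replicates 1 and 2 of this knockout group carried guide 4, and replicates 3 and 4 carried guide 2. With this promoter, Cas9 was not directed to the blood cells or endothelium of these livers. Replicate numbers only name a liver, and p-values set a group difference against the estimated spread between these livers.

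Megakaryocytes are large cells of the bone marrow that fragment into platelets, and red cells mature from erythroblasts under erythropoietin. The liver is the main site of blood formation in the fetus and hands this role to the marrow around birth, but blood cells can again form outside the marrow in illness. In the adult the liver still makes thrombopoietin, the hormone that drives megakaryocyte growth, and its resident macrophages, the Kupffer cells, clear aged platelets and red cells. Platelets and immature red cells carry RNA, so a whole liver also holds transcripts from blood in its vessels.

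Total counts ran from 15821198 to 21710228 per liver, and 3 counts, taken as the smallest detectable amount, equalled 0.131 to 0.198 CPM (counts scaled to library size with TMM factors). These limits cover counting error only. Old Rosa26 replicate 2 stood apart from the other livers in blood cell genes, and many of the results that rest on it are given with and without it. The targeted gene, Cd44, did not separate the groups: it was at 16.6, 11.1 and 10.1 CPM in young livers, 14.2, 30.0 and 25.9 CPM in old controls and 18.9, 29.0, 17.6 and 13.1 CPM in knockout livers. Its knockout log2 fold change was -0.25 (SE 0.30, edgeR adjusted p = 0.896), so Cd44 RNA provided no check of the knockout labels. The hepatocyte markers, led by Alb, were abundant in every liver, with a summed level of 97843 to 152551 CPM.

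Of the 9 genes, 8 had an entry in the RefSeq promoter table on GRCm38.p6. Only Slc4a1 was without one. Each window of 300 bases was searched on both strands for short motifs of the factor families that direct these lineages. The GATA motif was AGATAA, where a match could also begin with T or end with G. For the ETS family the motif was AGGAAG, and a first letter of C was also counted. The motif of the KLF family was CCNCNCCC. For NFE2 it was TGAGTCA; matches of different motifs that shared bases were each counted. A GATA match lay in the windows of 5 of the 8 genes, against 29.8% of all 32851 promoters. ETS matches lay in 6 of 8 (46.5% of all promoters), KLF matches in 4 of 8 (49.5%) and NFE2 matches in 0 of 8 (5.2%). The bases before the gene start are shown for the chemokine neighbours Pf4 and Ppbp and for 2 subunits of 1 platelet receptor, Gp1ba and Gp9, to let the stretches before genes of similar pattern be compared. They run 5′ to 3′ on the gene's strand, with GATA and ETS matches in capitals.
Pf4, chr5:90772185-90772434, plus strand: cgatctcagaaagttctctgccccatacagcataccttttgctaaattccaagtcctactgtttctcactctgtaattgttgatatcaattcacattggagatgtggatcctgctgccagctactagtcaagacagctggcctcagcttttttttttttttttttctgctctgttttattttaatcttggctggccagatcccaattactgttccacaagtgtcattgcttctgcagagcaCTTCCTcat
Ppbp, chr5:90768268-90768517, plus strand: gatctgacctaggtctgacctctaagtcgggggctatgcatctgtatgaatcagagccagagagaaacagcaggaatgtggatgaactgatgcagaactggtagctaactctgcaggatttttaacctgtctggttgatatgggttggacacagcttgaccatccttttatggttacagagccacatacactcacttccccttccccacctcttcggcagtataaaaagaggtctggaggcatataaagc
Gp1ba, chr11:70638872-70639121, plus strand: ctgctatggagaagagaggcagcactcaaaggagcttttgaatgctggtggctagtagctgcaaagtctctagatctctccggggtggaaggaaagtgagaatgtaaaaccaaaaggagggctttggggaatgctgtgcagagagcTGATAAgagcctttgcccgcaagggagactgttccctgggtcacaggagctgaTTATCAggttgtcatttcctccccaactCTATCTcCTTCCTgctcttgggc
Gp9, chr6:87777820-87778069, plus strand: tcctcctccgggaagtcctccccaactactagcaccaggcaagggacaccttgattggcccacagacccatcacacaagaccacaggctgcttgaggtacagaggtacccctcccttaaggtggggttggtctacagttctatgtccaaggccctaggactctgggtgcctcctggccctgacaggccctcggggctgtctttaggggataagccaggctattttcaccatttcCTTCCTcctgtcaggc
The Gp1ba stretch holds 3 GATA matches, whose first bases lie 104, 51 and 23 bases before the start, and an ETS match 16 bases before it. In the Pf4 stretch the only match is an ETS one that begins 9 bases before the start, and Gp9 has an ETS match 16 bases before its start. No match to either family lay in the Ppbp window. These are letter matches, not measured binding.

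**Figure D1:**
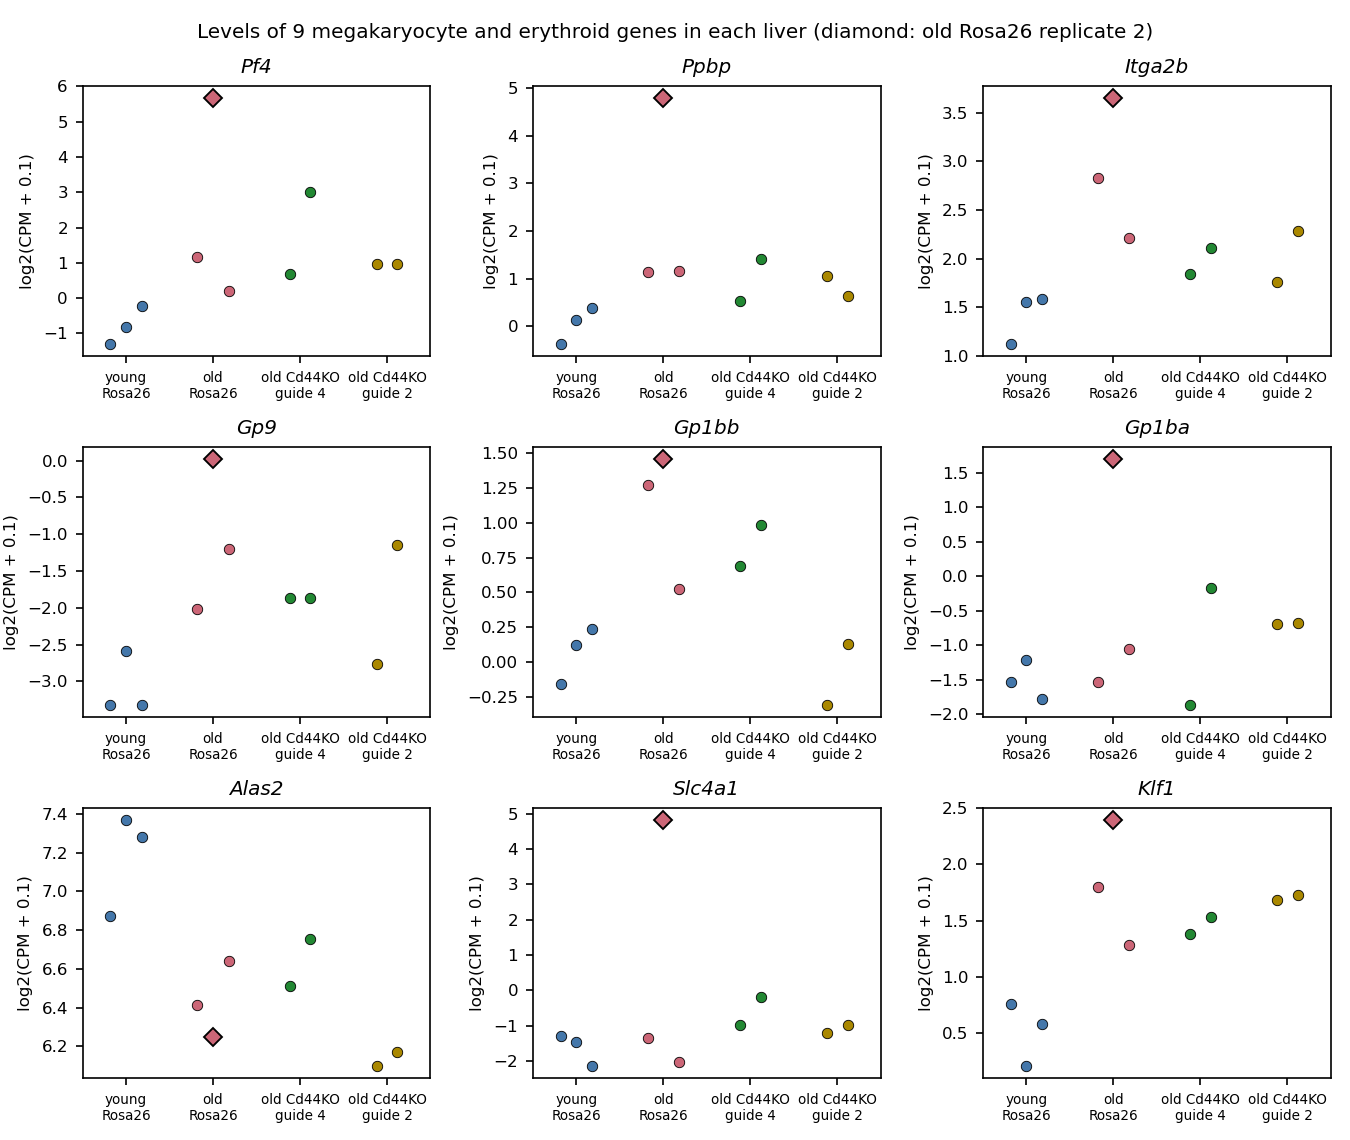
Level of each of the 9 genes in each of the 10 livers, as log2 of CPM + 0.1, with 1 point per liver in the young Rosa26, old Rosa26, old Cd44KO guide 4 and old Cd44KO guide 2 groups; the diamond is old Rosa26 replicate 2 and each panel has its own range. The diamond is the highest point in 8 of the 9 panels, and in the Alas2 panel the 3 young livers lie above all 7 old ones.

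Pf4 encodes platelet factor 4, a chemokine stored in platelet alpha granules. It lies on chr5:90772435-90773383 (GENCODE M21, GRCm38), 2371 bases downstream of the end of Ppbp. Pf4 was at 0.306, 0.462 and 0.760 CPM in the young livers, and at 2.16, 50.6 and 1.05 CPM in the old controls. In the knockout livers it was at 1.51 and 7.90 CPM with guide 4 and at 1.84 and 1.87 CPM with guide 2. All 7 old livers lay above all 3 young ones, but old Rosa26 replicate 2 lay 6.41 times above the next liver, knockout replicate 2. The counts behind these levels were 1110 in that old control, 181 in knockout replicate 2 and 5 to 44 in the other livers. The age log2 fold change of 5.13 (SE 1.45) became 1.64 without old Rosa26 replicate 2.

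Ppbp encodes the platelet basic protein, the precursor of another alpha-granule chemokine, and lies on chr5:90768518-90770063. Its level was 0.673, 0.989 and 1.20 CPM in young livers and 2.11, 27.5 and 2.15 CPM in old controls. Knockout livers had 1.34, 2.57, 1.98 and 1.46 CPM. As for Pf4, the old and young livers did not overlap, and old Rosa26 replicate 2 stood 10.7 times above the next liver. Its age log2 fold change was 3.47 (SE 0.93), and 1.15 without that liver.

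The other genes of the same chemokine cluster had other levels. Cxcl3 and Cxcl15 were at 0 counts in all 10 livers, and Cxcl5 reached at most 0.547 CPM. Cxcl1, a neutrophil attractant and the most abundant of them, was at 94.2, 165 and 29.5 CPM in young livers, 36.5, 18.2 and 78.8 CPM in old controls and 11.0 to 27.0 CPM in knockout livers. It was lower in knockout than in young livers (log2 fold change -2.29, edgeR adjusted p = 0.0314), and old Rosa26 replicate 2 held the lowest Cxcl1 of the 6 control livers.

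Itga2b encodes integrin alpha IIb, the subunit of the fibrinogen receptor that appears early in the megakaryocyte line, and lies on the minus strand of chr11:102453297-102470122. It was at 2.08, 2.84 and 2.91 CPM in young livers, 7.03, 12.4 and 4.53 CPM in old controls and 3.49, 4.23, 3.30 and 4.78 CPM in knockout livers. Every old liver was above every young one, and the highest liver was 1.77 times above the next. The age log2 fold change was 1.62 (SE 0.34), and 1.14 without old Rosa26 replicate 2. Itgb3, its partner subunit in the receptor, was at 3.36 to 4.94 CPM in young livers, 5.01, 12.7 and 5.49 CPM in old controls and 3.09 to 4.23 CPM in knockout livers (age log2 fold change 0.94, edgeR adjusted p = 0.0642). Without old Rosa26 replicate 2 the Itgb3 age log2 fold change was 0.39 (edgeR adjusted p = 0.293).

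Gp1ba, Gp1bb and Gp9 encode subunits of the platelet receptor for von Willebrand factor. Gp1ba, its ligand-binding chain, was at 0.190 to 0.330 CPM in young livers and at 0.246, 3.15 and 0.382 CPM in old controls. In knockout livers it was at 0.174, 0.785, 0.518 and 0.525 CPM, and without old Rosa26 replicate 2 its age log2 fold change of 2.29 (SE 0.93) was 0.30. Only 3 to 18 counts lay behind Gp1ba in the other 9 livers, against 69 in that one.

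Gp9 was at the edge of detection and was not tested, because it did not pass the filter on low counts. It had 0, 1 and 0 counts in young livers, 3, 20 and 7 in old controls and 3, 4, 1 and 6 in knockout livers. With the young livers at the floor, the Gp9 level of old Rosa26 replicate 2 was at least 4.79-fold higher, and the mean of the old controls at least 2.44-fold higher. Without that liver the old control mean was 0.241 CPM, against a young floor of 0.191 CPM.

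Gp1bb was at 0.796, 0.989 and 1.08 CPM in young livers, 2.31, 2.64 and 1.34 CPM in old controls, and 1.51, 1.88, 0.706 and 0.992 CPM in knockout livers. Old and young controls did not overlap, and old Rosa26 replicate 2 was only 1.14 times above the next liver (age log2 fold change 1.13, SE 0.41). Gp1bb lies on the minus strand of chr16:18620317-18622403 within Sept5, a septin gene of the same strand, and reads could not be assigned to 1 of the 2 with certainty. Sept5 was at 2.63 to 4.02 CPM in young livers and 3.0 to 3.69 CPM in old controls.

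Slc4a1 encodes band 3, the anion exchanger of the red cell membrane, on chr11:102348824-102366203. It showed the largest gap of the 9 genes: 0.306, 0.264 and 0.127 CPM in young livers, 0.295, 27.9 and 0.143 CPM in old controls and 0.407, 0.785, 0.330 and 0.408 CPM in knockout livers. Old Rosa26 replicate 2, with 613 counts, was 35.6 times above the next liver, and the other 9 livers had 2 to 18 counts. Slc4a1 was not tested, because it did not pass the filter on low counts. The other old controls lay within the range of the young livers.

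Klf1, the erythroid Krüppel-like transcription factor that switches on globin and band 3, was higher in every old liver. It was at 1.59, 1.06 and 1.39 CPM in young livers, 3.39, 5.15 and 2.34 CPM in old controls and 2.5, 2.79, 3.11 and 3.21 CPM in knockout livers. The lowest old liver was above the highest young one, and the 7 old livers ranged from 2.34 to 5.15 CPM (age log2 fold change 1.42, SE 0.31, and 1.08 without old Rosa26 replicate 2).

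Alas2, the erythroid form of the enzyme that commits glycine to haem synthesis, went the other way. It was at 117, 165 and 155 CPM in young livers, 85.2, 76.0 and 99.5 CPM in old controls and 91.0, 108, 68.4 and 71.9 CPM in knockout livers. All 7 old livers were below the young ones (age log2 fold change -0.75, SE 0.20), and old Rosa26 replicate 2 was the lowest of the 3 old controls. Alas2 overlaps Apex2 and Mir3620 on the other strand of chromosome X, and the use of strand in counting is not given in the sources used here.

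Set side by side per kilobase of exon (RPKM), Alas2 was the most abundant of the 9 in young livers at a mean of 60.7, followed by Ppbp at 0.882 and Klf1 at 0.880. In old Rosa26 replicate 2 the order was Pf4 at 70.2, Alas2 at 31.6, Ppbp at 25.4 and Slc4a1 at 5.71 RPKM. Pf4 alone thus had more RNA per length there than Alas2.

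The group means in CPM had the same order, old control above knockout above young, for 8 of the 9 genes, and for 4 of them without old Rosa26 replicate 2. Without that liver the old control mean was below the knockout mean for Pf4 (1.61 against 3.28 CPM), Gp1ba (0.314 against 0.501 CPM), Klf1 (2.86 against 2.90 CPM) and Slc4a1 (0.219 against 0.483 CPM, with young at 0.232 CPM). With all livers, the means ± SD for Pf4 were 17.9 ± 28.3 (n = 3), 3.28 ± 3.08 (n = 4) and 0.509 ± 0.231 (n = 3), and for Klf1 they were 3.63 ± 1.42, 2.90 ± 0.322 and 1.35 ± 0.271. For Alas2 the order was young at 146 ± 25.3, old control at 86.9 ± 11.9 and knockout at 84.8 ± 18.4. Old control and knockout livers overlapped for all 9 genes, where 3.26% of tested genes were lower and 2.84% higher in knockout livers without overlap. Old controls and young livers did not overlap for 6 genes that were higher and 1 that was lower, where 19.7% and 18% of all tested genes showed such a gap in the same directions. The 2 that overlapped were Gp1ba and Slc4a1. Between all 7 old and the 3 young livers, 4 genes (Pf4, Ppbp, Itga2b and Klf1) were higher without overlap and Alas2 was lower, against 13.5% and 11.1% of tested genes.

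With age, 6 of the 7 genes tested were higher and 1 was lower, with a median log2 fold change of 1.62 against 0.04 over all 13909 tested genes, of which 22.8% passed an adjusted p of 0.05 (14.1% higher and 8.66% lower). Without old Rosa26 replicate 2, 7.35% of genes passed, 5.04% as higher, and 6 of the 7 genes were again higher. That comparison chose the list. In whole-liver RNA, fewer cells of a type and less RNA per cell cannot be told apart.

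Knockout against old control livers addresses whether loss of hepatocyte Cd44 altered these genes. Here 0 of 7 passed the test, and all 7 had a lower fitted level. Of all tested genes, 45.6% had a higher fitted level in knockout livers. This comparison uses the old controls of the one that chose the list. Over all genes, 0% were called by edgeR at an adjusted p of 0.05, 916 genes (6.59%) had an unadjusted p under 0.05, and DESeq2 called 8. The log2 fold change was -2.43 (SE 1.05, 95% interval -4.73 to -0.13) for Pf4, -2.51 (SE 0.77, interval -4.20 to -0.82) for Ppbp and -1.02 (SE 0.30, interval -1.68 to -0.35) for Itga2b. Those 3 had unadjusted p-values of 0.0405, 0.00733 and 0.00616 and adjusted p-values of 0.748, 0.744 and 0.744 in edgeR's test.

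Gp1bb (-0.72, interval -1.51 to 0.08), Gp1ba (-1.30, interval -2.96 to 0.36), Klf1 (-0.32, interval -0.92 to 0.28) and Alas2 (-0.04, interval -0.44 to 0.37) were closer to 0 relative to their error. Without old Rosa26 replicate 2 the direction turned for Pf4 (1.05), Gp1ba (0.69) and Klf1 (0.02). The value was -0.20 for Ppbp, -0.55 for Itga2b and -0.51 for Gp1bb without it. The lower knockout levels of Pf4 and Ppbp thus rested on that 1 old control. Alas2 had an interval that leaves room for a knockout difference of at most 0.44 on the log2 scale in either direction.

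**Figure D2:**
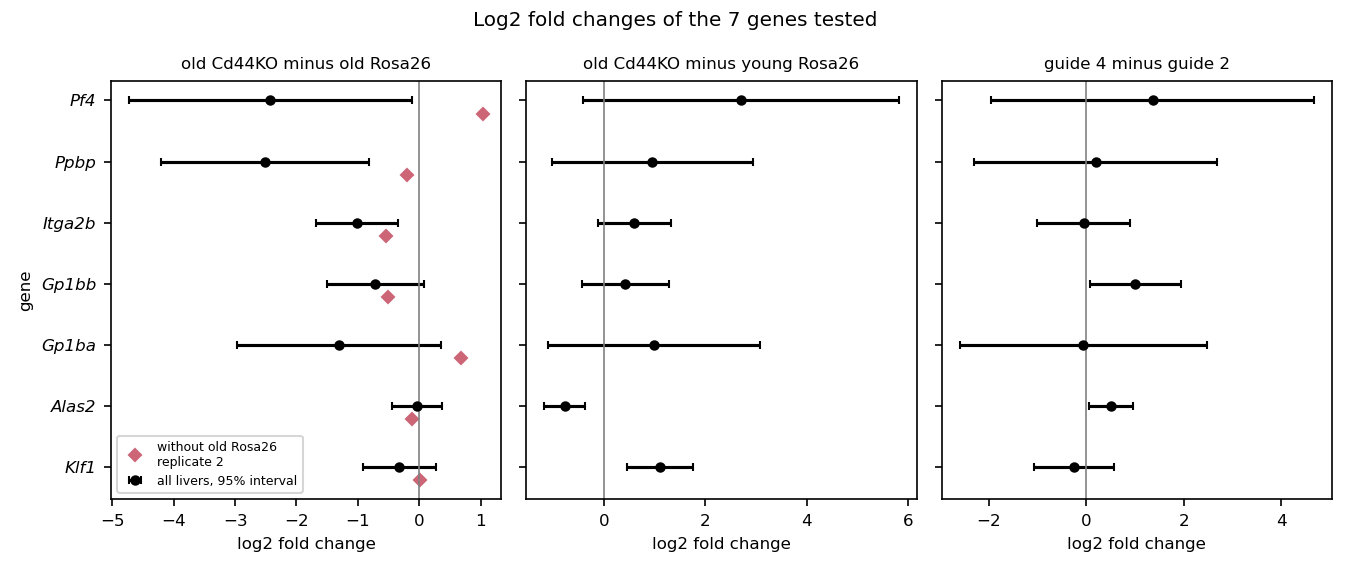
Log2 fold change of the 7 tested genes with its 95% interval for knockout against old control livers, knockout against young control livers and guide 4 against guide 2; diamonds give the knockout values without old Rosa26 replicate 2. In the knockout panel the Pf4 diamond is at 1.05 and the full value at -2.43, and against young livers only the intervals of Alas2 and Klf1 leave out 0.

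Knockout livers were also set against young controls, a comparison that uses none of the old controls but the same young livers as the one that chose the list. Here 2 of 7 genes passed the test, where 11.6% of all tested genes did (6.64% higher and 4.97% lower). Alas2 was lower (log2 fold change -0.78, SE 0.18, edgeR adjusted p = 0.0286) in 4 of 4 knockout livers, and Klf1 was higher (1.10, SE 0.30, adjusted p = 0.0402) in 4 of 4. Without overlap, 5 of the 9 genes were higher (Pf4, Ppbp, Itga2b, Slc4a1 and Klf1) and Alas2 was lower, against 21.1% and 18.8% of tested genes. Pf4 did not pass (2.70, interval -0.43 to 5.82, adjusted p = 0.204), nor did Itga2b (0.60, interval -0.12 to 1.31, adjusted p = 0.221) or Ppbp (0.95, adjusted p = 0.479).

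Neither call was firm. Alas2 lost its call under total-count scaling (-0.46, edgeR adjusted p = 0.0797) and without young replicate 2 or 3 or knockout replicate 3 or 4. Klf1 lost its call with limma voom (adjusted p = 0.0704) and without any 1 of young replicates 1 to 3 or knockout replicates 2 to 4. Fitted on the groups compared alone, Pf4 and Ppbp also passed (edgeR adjusted p = 0.0212 and 0.04996). Total-count scaling moved the median log2 fold change of all genes from 0.03 to 0.35 in this comparison and from 0.04 to 0.34 with age, and the share of calls that were higher from 57.2% to 92.9% and from 62.0% to 91.6%.

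Guide 4 and guide 2 livers, a comparison that uses no library of the age comparison, gave 0 calls among the 7 genes, against 0.0216% of all genes (3 genes), and 2 of 7 had an unadjusted p under 0.05, against 4.34% of all genes. Gp1bb was 1.0 higher on the log2 scale with guide 4 (interval 0.07 to 1.94, unadjusted p = 0.0382, adjusted p = 0.9996 in edgeR's test), and Alas2 was 0.50 higher (interval 0.06 to 0.95, unadjusted p = 0.0299, adjusted p = 0.996). The gene that encloses Gp1bb, Sept5, was at 4.18 and 3.97 CPM with guide 4 and at 1.93 and 1.46 CPM with guide 2 (log2 fold change 1.26, adjusted p = 0.398). Pf4 differed by 1.36 (interval -1.96 to 4.68) and by -0.29 without knockout replicate 2, which had 7.90 CPM against 1.51 to 1.87 CPM in the other knockout livers. The intervals of Ppbp, Itga2b, Gp1ba and Klf1 all held 0.

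Beyond the 9 genes, most megakaryocyte and red cell membrane genes had their peak in the same liver. Old Rosa26 replicate 2 held the highest level for 11 of 14 other platelet surface receptors, 11 of 14 granule and cytoskeleton genes, 11 of 14 transcription factors and 14 of 18 red cell membrane genes, where 16.4% of all detected genes peaked there. None of the 6 detected globin symbols and no gene of haem synthesis (0 of 11) peaked there.

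Gata1, the factor that both lineages need, had 0 counts in every young liver, 35 counts in old Rosa26 replicate 2 (1.60 CPM) and at most 2 in the other livers. Gfi1b, a partner repressor, was at 1.69 CPM there and at 1 count or less in every other liver. Treml1, a platelet granule receptor, was at 2.19 CPM there (at least 11.5-fold above the young floor) and at most 0.393 CPM elsewhere.

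Several red cell surface genes, chosen here for their level in this liver, were near 0 elsewhere. Rhag, of the Rhesus complex, was at 2.14 CPM in old Rosa26 replicate 2 and at 0 counts in all other livers. Ermap (5.06 CPM), Rhd (3.24 CPM), Kel (2.92 CPM) and Epb42 (2.19 CPM) had the same shape. Others of the list were present in every liver, such as Epb41, a membrane skeleton protein made in many cells, at 80.8 CPM in old Rosa26 replicate 2 and 82.7 to 132 CPM elsewhere. Hemgn, an erythroid nuclear protein, was at 4.65 CPM, and Epor, the erythropoietin receptor, was at 6.11 CPM against 0.198 to 1.43 CPM elsewhere.

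Globin RNA was present in all livers and peaked in another liver, with old Rosa26 replicate 2 in second place. The globins summed to 2751 CPM in knockout replicate 2, 2099 CPM in old Rosa26 replicate 2 and 977 to 1600 CPM in the other 8 livers. Hba-a1 was at 406, 357 and 396 CPM in young livers, 509, 619 and 279 CPM in old controls and 362, 815, 447 and 405 CPM in knockout livers, so that knockout replicate 2 was highest. Hbb-bs was also highest there, at 455 CPM, against 331 CPM in old Rosa26 replicate 2. With age 0 of 6 globin symbols tested passed. Counts were nearly equal in each liver for Hba-a1 and Hba-a2, for Hbb-bs and Hbb-b1, and for Hbb-bt and Hbb-b2. The symbols of each pair are therefore not separate measurements, and the sums above may hold the same reads repeatedly. The embryonic globins Hba-x, Hbb-bh1 and Hbb-y had 0 counts in all 10 livers.

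**Figure D3:**
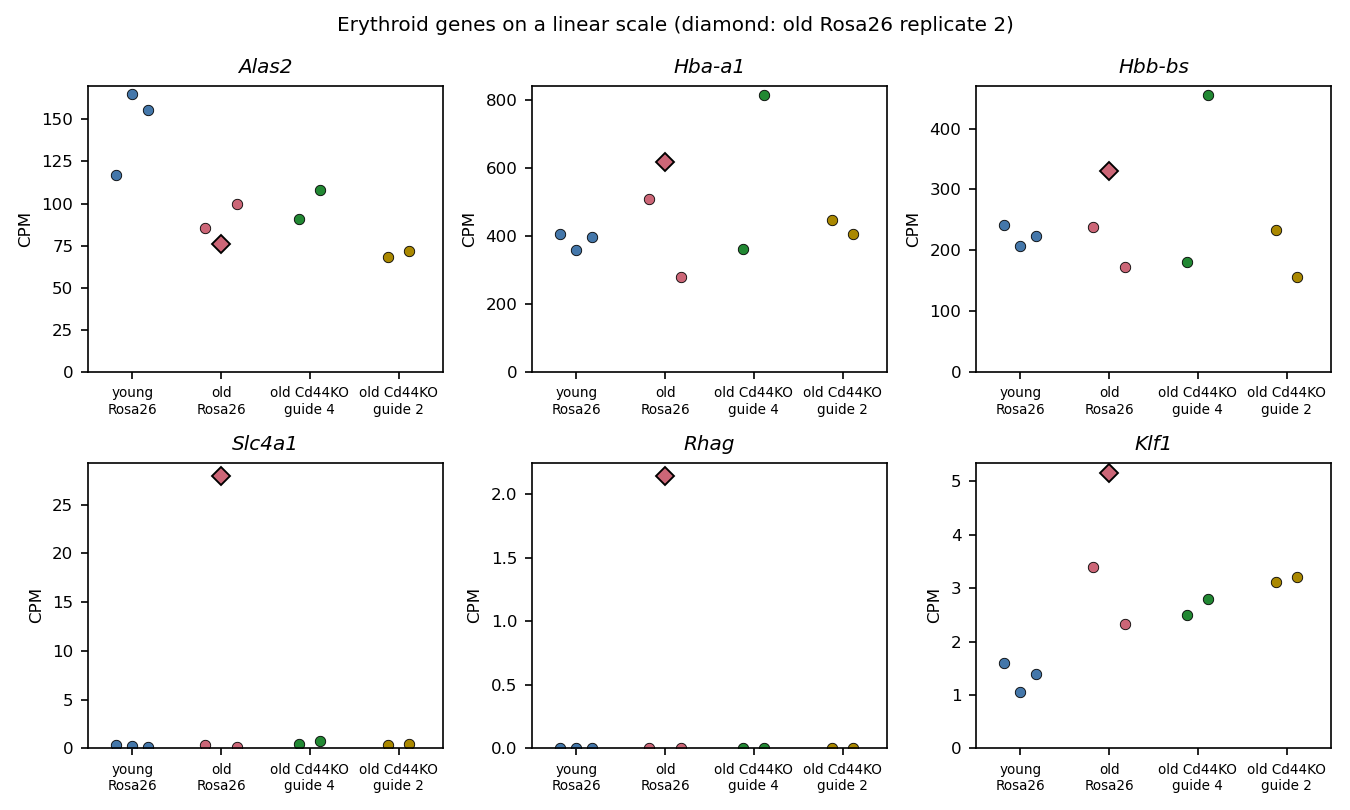
CPM on a linear scale from 0 for 6 erythroid genes in each of the 10 livers, 1 point per liver by group, with old Rosa26 replicate 2 as a diamond. Slc4a1 and Rhag are at or near 0 except in that liver (27.9 and 2.14 CPM), the globins Hba-a1 and Hbb-bs are highest in knockout replicate 2 (815 and 455 CPM), and Alas2 is highest in young livers.

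Some genes of the megakaryocyte lists rose with age. The Kupffer cell and endothelial lists each had 6 of 10 markers called higher without old Rosa26 replicate 2. Which cells made the RNA of the genes below was not tested. Folds and adjusted p-values without old Rosa26 replicate 2 come from a fit with 1 old control fewer, so a call can be lost there at a similar fold. Over all tested genes, 14.1% were called higher and 8.66% lower with age, and 5.04% higher without old Rosa26 replicate 2. Among surface receptors 3 of 6 tested rose and 0 fell. They were P2ry12 (log2 fold change 2.52, edgeR adjusted p = 0.00936), an ADP receptor, Clec1b (1.73, adjusted p = 0.00917), the podoplanin receptor, and Lat (1.69, adjusted p = 0.0397), a signalling adaptor shared with T cells. Clec1b went from 4.62 to 5.32 CPM in young livers to 11.0 to 25.3 CPM in old controls and 8.14 to 15.8 CPM in knockout livers. It passed against young in the knockout livers too (1.35, adjusted p = 0.0261). Without old Rosa26 replicate 2, P2ry12 (1.86, edgeR adjusted p = 0.0267) and Clec1b (1.30, adjusted p = 0.0267) were called and Lat was not (1.10, adjusted p = 0.168).

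Granule and cytoskeleton genes had 5 of 13 tested that rose and 0 that fell, and 2 without that liver. Of all tested genes, 14.1% were called higher with age, and 5.04% without that liver. Gng11, a G protein subunit, went from 4.42 to 4.88 CPM in young livers to 15.1, 11.8 and 7.77 CPM in old controls (log2 fold change 1.31, edgeR adjusted p = 0.00810). Bin2 (1.83, adjusted p = 0.0128), Plek (1.72, adjusted p = 0.0273), Alox12 (1.33, adjusted p = 0.0340) and Sdpr (0.77, adjusted p = 0.0231) were the others. Gng11 (1.29, adjusted p = 0.0257) and Bin2 (1.29, adjusted p = 0.0420) were called without that liver, whereas Plek (1.09, adjusted p = 0.116), Alox12 (0.90, adjusted p = 0.142) and Sdpr (0.75, adjusted p = 0.0660) were not. F5, the most abundant gene of the list and one that hepatocytes make as a clotting factor, did not pass (0.02, adjusted p = 0.956).

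Of the transcription factors, 5 of 12 tested rose with age and 0 fell, and 2 without old Rosa26 replicate 2. The shares of all genes called higher were 14.1% with that liver and 5.04% without it. Nfe2, which drives platelet release, had the largest change (2.63, edgeR adjusted p = 0.00780): 0.507 to 1.06 CPM in young livers, 3.0, 7.07 and 3.43 CPM in old controls and 1.46 to 2.91 CPM in knockout livers. Tal1 (1.60, adjusted p = 0.0258), E2f2 (1.46, adjusted p = 0.0344), Lmo2 (1.33, adjusted p = 0.0136) and Fli1 (1.21, adjusted p = 0.0260) also rose. Without old Rosa26 replicate 2, Nfe2 (2.14, adjusted p = 0.0243) and Lmo2 (0.93, adjusted p = 0.0446) were called, and Tal1 (1.0, adjusted p = 0.105), E2f2 (0.74, adjusted p = 0.134) and Fli1 (0.77, adjusted p = 0.0995) were not. Nfe2 (1.62, adjusted p = 0.0352) and Lmo2 (0.99, adjusted p = 0.0460) passed in knockout against young livers. Zfpm1, the GATA cofactor and most abundant of the list at 44.5 to 84.0 CPM, did not (age log2 fold change -0.21, adjusted p = 0.478).

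As a reference for the erythroid lists, 14.1% of all genes were called higher and 8.66% lower with age. Without old Rosa26 replicate 2, 5.04% were called higher. On the erythroid side, 2 of 7 tested membrane genes rose with age, and 0 without old Rosa26 replicate 2. These were Gypc (0.82, edgeR adjusted p = 0.0236), which encodes glycophorin C, and Aqp1 (0.78, adjusted p = 0.0338), a water channel that endothelium also makes. Without that liver Gypc was at 0.57 (adjusted p = 0.0856) and Aqp1 at 0.85 (adjusted p = 0.0688). Among 9 other erythroid genes tested, 0 rose and Tfrc, the transferrin receptor that brings iron into cells, fell (-0.81, adjusted p = 0.00986). In haem synthesis 1 of 11 rose, Ppox (0.69, adjusted p = 0.0492), and 0 without that liver, where Ppox had a similar fold (0.77, adjusted p = 0.0869). Alas1, the housekeeping counterpart of Alas2, was at 557, 727 and 879 CPM in young livers, 64.4, 155 and 508 CPM in old controls and 87.6 to 284 CPM in knockout livers, and missed the threshold (age -1.57, adjusted p = 0.0879; knockout against young -1.89, adjusted p = 0.0535).

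Among the cytokines and niche genes of blood formation 1 of 7 tested rose with age, Flt3l (0.89, edgeR adjusted p = 0.0366), and 0 without old Rosa26 replicate 2, where Flt3l had a similar fold (0.93, adjusted p = 0.0805). That 1 of 7 was near the 14.1% of all genes called higher with age. Thpo, which encodes thrombopoietin, was at 32.4, 38.1 and 27.8 CPM in young livers, 32.7, 19.2 and 25.5 CPM in old controls and 16.9 to 26.7 CPM in knockout livers (age log2 fold change -0.34, edgeR adjusted p = 0.259). The liver with the highest Pf4 had the lowest Thpo of the 6 control livers. Epo, which encodes erythropoietin, had 0 counts in all 10 livers, with upper 95% counting limits of 0.161 to 0.243 CPM. Kitl, the ligand of Kit, was at 1.81 to 4.97 CPM and Kit at 2.98 to 10.4 CPM, and neither passed with age (0.32, adjusted p = 0.463, and 0.98, adjusted p = 0.0678). The Ashwell-Morell receptor genes Asgr1 and Asgr2, which take up aged platelets, did not pass either (-0.07 and -0.03, adjusted p = 0.711 and 0.906).

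Genes of red cell and haem clearance had 2 of 9 that rose with age and 1 that fell, and 0 in either direction without old Rosa26 replicate 2. Over all genes, 14.1% were called higher and 8.66% lower with age. Spic (1.96, edgeR adjusted p = 0.0196), a factor of macrophages that recycle red cells, and Slc40a1 (0.98, adjusted p = 0.0248), the iron exporter, rose, and Fth1 (-0.42, adjusted p = 0.0420), a ferritin chain, fell. Without that liver their values were 1.40, 0.78 and -0.45 (adjusted p = 0.0764, 0.0973 and 0.108). Hmox1, which degrades haem, was at 159 CPM in old Rosa26 replicate 2 and at 19.3 to 45.3 CPM in the other livers.

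Markers of other blood cells moved with the megakaryocyte and red cell genes in old Rosa26 replicate 2, where 16.4% of all detected genes peaked. Of the granulocyte precursor genes 15 of 17 peaked there, with a summed level of 350 CPM against 32.7 and 40.5 CPM in the other old controls, 14.6 to 20.8 CPM in young and 21.9 to 38.0 CPM in knockout livers. Ngp was at 63.0 CPM, Mpo at 31.6 CPM and Ltf at 28.3 CPM there, each at 2.97 CPM or less in every other liver. Kupffer cell markers peaked there in 8 of 10 cases, with a sum of 1612 CPM against 505 and 967 CPM in the other old controls, 265 to 369 CPM in young and 472 to 827 CPM in knockout livers.

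Monocyte and macrophage markers did so in 12 of 14 cases, with a sum of 1083 CPM against 185 to 587 CPM in all other livers, and T and NK cell markers in 9 of 11 cases, with a sum of 61.6 CPM against 5.26 to 35.3 CPM. Cell cycle genes peaked there in 10 of 12 cases, with Mki67 at 20.5 CPM against 0.950 to 7.11 CPM elsewhere. The hepatocyte markers peaked there in 0 of 10 cases and the B and plasma cell markers in 1 of 7, against 16.4% of all detected genes. Of the mast cell, basophil and eosinophil genes 5 of 12 peaked there. The mast cell protease Cpa3 had 5 counts there and 6 in old Rosa26 replicate 3, Tpsab1 had 1 count there, and Mcpt4, Tpsb2 and Cma1 had 0. Ccr3, an eosinophil receptor, was at 23.6 CPM there and at 1.13 CPM or less elsewhere. The eosinophil genes Epx, Siglecf and Prg2 of the same list had 1, 11 and 17 counts in that liver. The part of these cell types in the levels of the 9 genes was not tested.

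**Figure D4:**
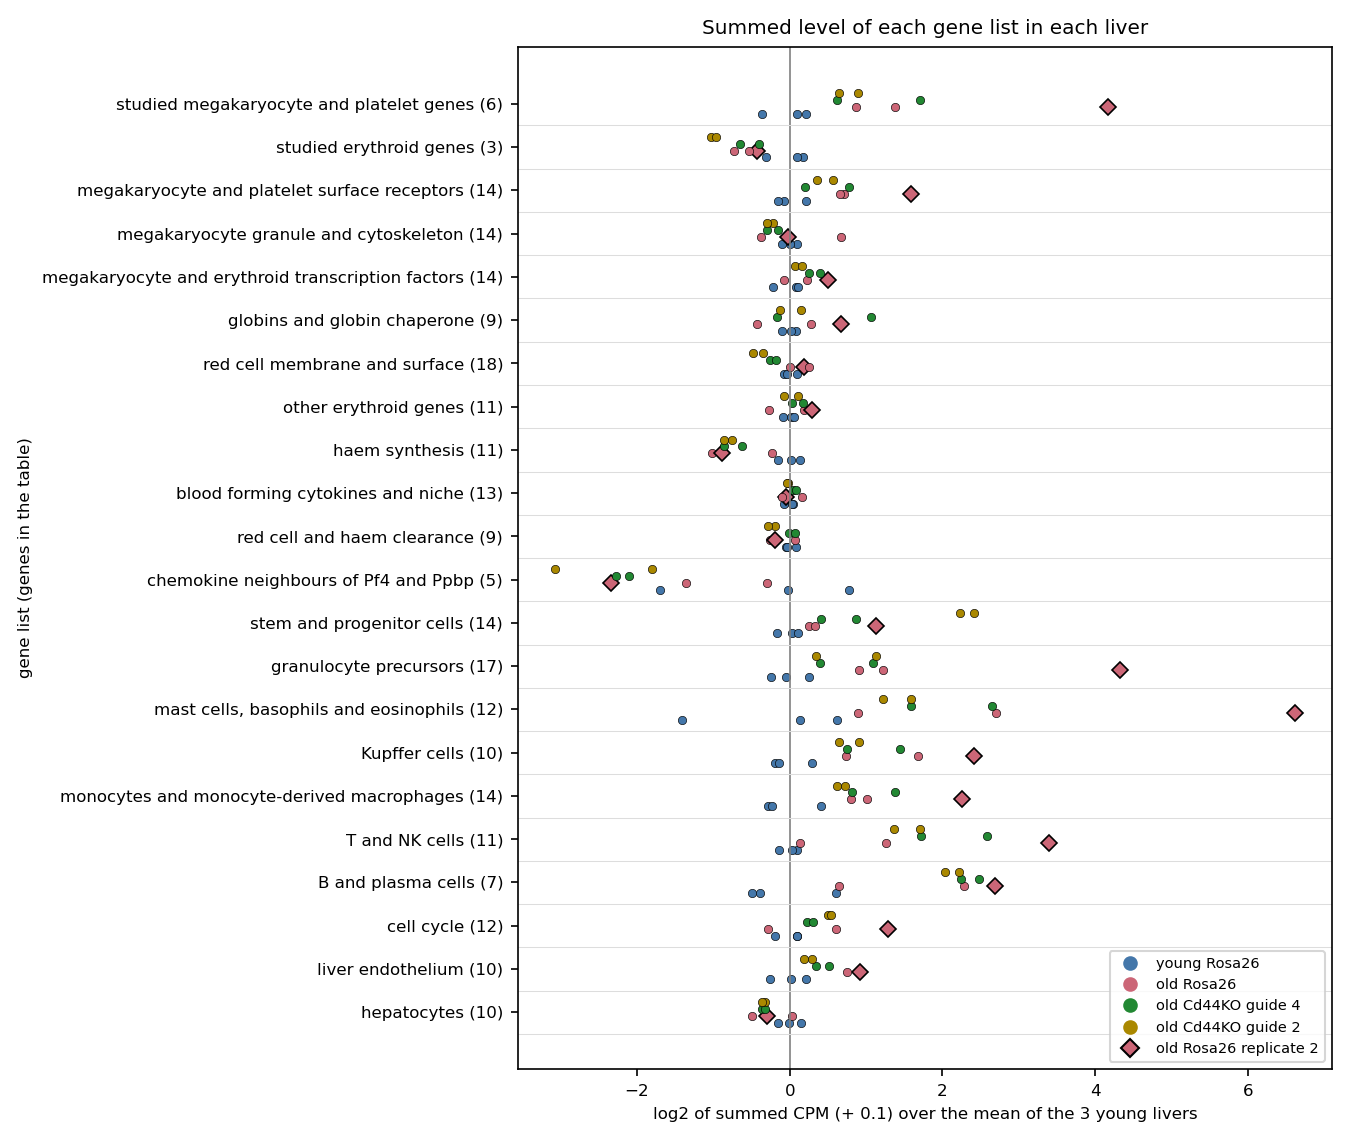
Summed CPM of each gene list in each liver, as log2 of the ratio to the mean of the 3 young livers (0.1 CPM added), with 1 point per liver and the number of genes in brackets; the diamond is old Rosa26 replicate 2. That liver is far right for the studied megakaryocyte genes, the granulocyte precursors and the Kupffer cell list (97.2, 350 and 1612 CPM), and not for hepatocytes or haem synthesis.

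Markers of other cell types also changed with age. Over all genes, 14.1% were called higher and 8.66% lower with age, and 5.04% higher without old Rosa26 replicate 2. With that liver, 8 of 10 Kupffer cell markers rose with age, and 6 without it, and the monocyte and macrophage list gave 10 of 14 with it and 5 without. Endothelial markers gave 8 of 10 and 6, stem and progenitor genes 3 of 11 and 2, cell cycle genes 8 of 12 and 3, and granulocyte precursors 5 of 8 and 0. Among T and NK cell markers 5 of 10 rose with it and 0 without it, and among B and plasma cell markers 4 of 7 and 1. Of the hepatocyte markers 2 of 10 fell, Hnf4a (-0.96, edgeR adjusted p = 0.0147) and Serpina1c (-0.77, adjusted p = 0.0129), and 0 were called without it, at similar folds (-0.84, adjusted p = 0.0604, and -0.72, adjusted p = 0.0556). Over all genes that liver moved the age calls from 3172 to 1032 when left out. Knockout and guide comparisons gave 0 calls in every list.

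Knockout replicate 2, the liver next to it in Pf4, shared only some of these features. It had Trem2 at 6.5 CPM, where young livers had 0.428 to 0.634 CPM and old Rosa26 replicate 2 had 35.9 CPM, and Lyz2 at 186 CPM. Gata1, Gfi1b and Rhag were at 0 counts in it. It held the highest level of all 6 detected globin symbols, which are not 6 separate measurements. Of all detected genes, 4.63% peaked in knockout replicate 2.

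The 8 genes whose levels were most like Pf4 over the 10 livers, by Pearson's r of log2 CPM among 12689 genes of at least 1 CPM, were Ppp1r9b (r = 0.98), Clec10a, Spire1, Trem2, Tmem173, Adcy3, Adprh and Lyl1 (r = 0.97). Trem2 and Clec10a are genes of macrophages, and Lyl1 is a blood cell transcription factor. Clec10a was at 0.330 to 0.760 CPM in young livers, 1.47, 13.04 and 1.10 CPM in old controls and 0.930 to 2.57 CPM in knockout livers. The correlations share the same 10 libraries and rest in part on 1 of them: 5 of the 8 stayed among the 8 most similar without old Rosa26 replicate 2, and 1 of the 8 by Spearman's rank.

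For Alas2 the 8 were Cldn14 (r = 0.98), Slc41a1, Tchh, Rrp1b, LOC100503496, Mtss1, Clk2-scamp3 and Mical2 (r = 0.95), of which 5 stayed without that liver and 3 by rank. Cldn14, a tight junction gene, was at 23.1, 34.1 and 32.4 CPM in young livers, 15.9, 10.3 and 14.7 CPM in old controls and 10.1 to 19.2 CPM in knockout livers, and had its highest and its lowest value in the same livers as Alas2. No erythroid gene of the lists was among these 8.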

How the data were processed

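Polyadenylated RNA of whole livers was sequenced as paired reads on an Element AVITI instrument, per the labels' protocols. FastQC 0.11.8, Trim Galore 0.4.4, STAR 2.5.3a and HOMER, with build mm10, are named in the submitters' processing notes. The authors deposited 1 table of raw counts per gene symbol, and annotation and strand use are not given in the sources used here. From these counts, edgeR 4.0.16 (R 4.3.3) fitted 3 groups over all 10 livers, or 4 groups for the guides, with TMM factors, filterByExpr (minimum count 10, minimum total 15) and the quasi-likelihood test, and p-values were adjusted by Benjamini-Hochberg over 13909 genes at a threshold of 0.05. Of the 9 genes, 7 passed the filter and Gp9 and Slc4a1 did not. Intervals are 95% intervals of the fitted change. Symbols were placed with GENCODE M21 on GRCm38. Alternatives were RLE factors, total counts, DESeq2 1.42.0, limma 3.58.1 voom, no filter, only the groups compared and leaving out each liver; list counts and group means without old Rosa26 replicate 2 were added after the values were seen. The steps were tested on simulated data.

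The genes and the 22 lists (249 entries, of which 5 matched no symbol) were chosen with earlier results of these data known. The text names all 9 genes, Thpo, Epo, Epor, Kitl, Kit and Gata1, from each list a selection of at most 5 called genes per comparison and its most abundant gene, and the 8 genes most like Pf4 and most like Alas2. Some genes of the lists are not reported here. Genes described by their level in old Rosa26 replicate 2 were chosen after their values were seen.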

Additional observations from a re-analysis of the deposited data

Results flagged for a closer look

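Among the 4 knockout livers, 8 of 133 values examined had a highest or lowest liver far from the other 3, where chance alone gives about 6.65. The measure is the gap to the nearest liver divided by the whole range of the group. Pf4 was highest in knockout replicate 2, at 7.90 CPM against 1.51 to 1.87 CPM (0.944 of the range). The same liver was highest for Ppp1r9b (24.5 against 16.8 to 17.8 CPM, 0.873), Fli1 (5.72 against 3.79 to 4.07 CPM, 0.857), Cd4 (8.33 against 1.40 to 2.44 CPM, 0.850) and Ccr3 (1.13 against 0.117 to 0.291 CPM, 0.8292). Gata1 was detected only in knockout replicate 1 among these 4, at 0.116 CPM from 2 counts (1.0), which is under the floor of 3 counts. Ngp was highest in knockout replicate 3, at 2.97 against 0.350 to 0.567 CPM (0.917), and Tal1 was lowest in knockout replicate 4, at 1.11 against 1.70 to 1.79 CPM (0.870).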

How the results depend on the processing

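No paired analysis was possible because no label ties a liver of 1 group to a liver of another. With age, 3172 genes were called, and 1192 with only the groups compared; leaving out 1 liver gave 396 (without young replicate 2) to 5327 (without old Rosa26 replicate 3). In the knockout comparison 0 genes were called, 8 with DESeq2 and 0 to 3 with 1 liver left out, the 3 being without old Rosa26 replicate 1. Knockout against young gave 1614 calls, 3585 with total counts, 2803 with DESeq2, 969 with voom, 4223 with only the groups compared and 56 to 1652 with 1 liver left out. Of the 7 genes tested, 2 were called there, 1 with total counts, 1 with voom, 4 with only the groups compared and 0 to 2 with 1 liver left out. Guides gave 3 calls, 73 with DESeq2, 10 with no filter, 36 with only the groups compared and 0 to 0 with 1 liver left out.

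Directions turned only when 1 liver was left out. In the knockout comparison the ranges were -3.36 to 1.05 for Pf4, -1.78 to 0.69 for Gp1ba, -0.56 to 0.0203 for Klf1 (each highest without old Rosa26 replicate 2) and -0.17 to 0.0750 for Alas2. Between guides they were -0.29 to 2.09 for Pf4, -0.37 to 0.57 for Ppbp, -0.31 to 0.23 for Itga2b and -1.54 to 0.58 for Gp1ba. The cause was not tested. With no filter, the knockout values were -4.25 for Slc4a1 and -1.33 for Gp9 on the log2 scale, each with an edgeR adjusted p of 0.845. The Slc4a1 value rests on old Rosa26 replicate 2. Without that liver, mean Slc4a1 was 0.219 CPM in old controls and 0.483 CPM in knockout livers. Depth limits Gp9, Slc4a1 and Gp1ba most: outside old Rosa26 replicate 2, Gp9 had at most 7 counts and both others at most 18.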

Other observations

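Ly6a, which encodes the stem cell antigen Sca-1 and is also made by endothelium, differed between knockout livers by guide rather than with Pf4. It was at 61.3 to 67.9 CPM in young livers, 68.6, 155 and 76.1 CPM in old controls, 76.7 and 128 CPM in the guide 4 livers and 491 and 566 CPM in the guide 2 livers. Both guide 2 livers were above all 8 others. Guide 4 against guide 2 gave a log2 fold change of -2.37 (SE 0.38, unadjusted p = 8.96e-05, edgeR adjusted p = 0.138), which did not pass. Knockout against young livers gave 2.31 (edgeR adjusted p = 0.0401). Both guide 4 livers also lay above the young livers, and how far that value depends on the guide 2 livers was not tested.

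Prtn3, a protease of granulocyte precursors, did not peak in the same liver as Mpo and Ngp. It was at 1.45 to 3.06 CPM in young livers, 0.983, 12.9 and 14.1 CPM in old controls and 3.02, 8.11, 0.754 and 0.292 CPM in knockout livers. Old Rosa26 replicate 3 thus had the most Prtn3 with Mpo at 0.668 CPM, while old Rosa26 replicate 2 had Mpo at 31.6 CPM.

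B and plasma cell markers were highest in knockout replicate 2 for 4 of 7 genes and in old Rosa26 replicate 2 for 1. The shares of all detected genes that peaked in these livers were 4.63% and 16.4%. Cd79b, a part of the B cell receptor, was at 0.127 to 0.734 CPM in young livers, 4.08, 4.19 and 1.14 CPM in old controls and 2.5 to 6.06 CPM in knockout livers. It passed with age (log2 fold change 3.03, edgeR adjusted p = 0.0123) and in knockout against young livers (3.39, adjusted p = 0.0156).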
